A study of Homo sapiens with 2 samples.

Results

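The 46 genes described here encode the machinery that copies DNA, and were taken by name from the 33538 genes of the count table, with earlier results of these data known. They cover the MCM2-7 helicase, its partners CDC45, GINS and MCM10, the origin licensing factors, the clamp and clamp loader, lagging strand enzymes, polymerases and primase, the single-strand binding protein RPA, factors that travel with the fork, and cyclin E with 2 E2F factors. They were read in A549 cells, an established human lung adenocarcinoma line, that carried Cas9 under a doxycycline-inducible promoter and a lentiviral pool of 120 gRNAs, added at an MOI (virus per cell) of 0.3. After puromycin selection Cas9 was induced for 2 days, and the cells were grown for a further 5 days and profiled by CROP-seq, in which the gRNA of each cell is read beside its mRNA. A target pool is the set of cells with exactly 1 gRNA above 3 unique molecular identifiers (UMIs) and that gRNA aimed at the named gene. The comparison cells carried exactly 1 Non-Targeting gRNA and had the same virus, selection and Cas9 induction. Non-Targeting gRNAs are aimed at no gene, so the part of a Cas9 cut as such was not tested. All cells came from 1 culture and 1 transcriptome library, so no condition has a replicate, no p-value is given, and every interval covers counting error only. Whether Cas9 cut the target in a given cell was not measured here.

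The table held 5744 cells and 210519208 transcriptome UMIs, with a median of 34625 UMIs per cell (513 to 161719). Of these cells 3189 had a single called gRNA (2493 targeting, 696 Non-Targeting), 2269 had no gRNA above 3 UMIs and 286 had several. A cell with no called gRNA may still carry one. The authors report mutant gRNAs in part of the cells without a detected gRNA and in part of those with a single one. Mutant gRNAs were not told apart here. At least 3 of 10 epithelial and A549 markers had a UMI in 99.2% of cells, against 2 cells with at least 3 of 7 fibroblast markers and 0 cells with at least 3 of the immune or endothelial markers. The keratins KRT8, KRT18 and KRT7, in 99.4%, 99.7% and 99.6% of cells, can meet this rule alone. EPCAM was in 13.8% of cells, and the lung markers NKX2-1, SFTPB and SFTPC were in 0.16%, 0.02% and 0.50%. Of the other lists, CD14 had a UMI in 20.6% of cells and COL1A1 in 10.5%. Each of the 46 genes had at least 64 UMIs in the Non-Targeting pool, so all 46 passed the minimum of 50 UMIs there and none was dropped from any target pool.

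Replication starts when the origin recognition complex, with CDC6 and CDT1, loads the MCM2-7 ring onto DNA in G1, and GMNN (geminin) later blocks CDT1 so that origins load only once. CDC45 and GINS then bind the ring to make the active helicase, primase and polymerase alpha lay down primers, and the RFC clamp loader places PCNA for polymerases delta and epsilon. Most of these genes are transcribed at the G1/S transition by E2F factors once cyclin-dependent kinases have released these from RB, so their mRNAs mark cells that enter and pass through S phase.

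The promoters of these genes held the E2F sequence more often than promoters at large. RefSeq promoter sequences (GRCh38.p14, 250 bases before and 50 after the start, the first listed start where a gene has several) were found for 38 of the 46 genes. The E2F site was searched on both strands in 4 forms, TTTCCCGC, TTTCGCGC, TTTGCCGC and TTTGGCGC, of which TTTCGCGC and TTTGGCGC can overlap a match on the opposite strand. It was present in 19 of 38 members and in 3.31% of all 35116 promoters. The CCAAT box (CCAAT) was in 23 members (60.5%) against 34.6% of all promoters, and the cell cycle homology region (CHR, TTTGAA) was in 0 of 38 against 15.2%. The member promoters were richer in G and C (median 65.8%) than all promoters (58.7%), and the part of base composition in these shares was not tested. Of 26 E2F matches in the members, 15 were centred within the 100 bases before the start. The 6 members shown first below had the strongest co-expression among those with an E2F site wholly inside the 100 bases before the start. FEN1 and RFC1 follow as members with no E2F match, with high and low co-expression. Each line gives the 100 bases that end just before the start, 5′ to 3′ on the strand of the gene, with the E2F match in capitals.
MCM7, chr7:100101398-100101497, minus strand: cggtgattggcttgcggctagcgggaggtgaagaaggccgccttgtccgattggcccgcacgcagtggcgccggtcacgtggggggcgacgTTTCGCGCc
GINS2, chr16:85688955-85689054, minus strand: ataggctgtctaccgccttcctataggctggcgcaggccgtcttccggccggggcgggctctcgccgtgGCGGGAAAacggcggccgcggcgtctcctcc
PCNA, chr20:5126623-5126722, minus strand: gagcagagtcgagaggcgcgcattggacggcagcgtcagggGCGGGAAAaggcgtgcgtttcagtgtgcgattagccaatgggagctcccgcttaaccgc
CDT1, chr16:88803689-88803788, plus strand: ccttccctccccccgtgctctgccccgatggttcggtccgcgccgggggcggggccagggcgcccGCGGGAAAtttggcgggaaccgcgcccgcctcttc
E2F1, chr20:33686386-33686485, minus strand: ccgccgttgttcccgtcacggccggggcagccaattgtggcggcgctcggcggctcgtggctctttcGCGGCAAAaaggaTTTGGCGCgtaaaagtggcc
MCM6, chr2:135876444-135876543, minus strand: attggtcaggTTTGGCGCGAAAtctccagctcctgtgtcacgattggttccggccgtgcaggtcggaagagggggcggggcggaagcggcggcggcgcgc
FEN1, chr11:61792811-61792910, plus strand: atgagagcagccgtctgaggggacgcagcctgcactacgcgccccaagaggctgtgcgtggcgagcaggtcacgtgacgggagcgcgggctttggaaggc
RFC1, chr4:39366363-39366462, minus strand: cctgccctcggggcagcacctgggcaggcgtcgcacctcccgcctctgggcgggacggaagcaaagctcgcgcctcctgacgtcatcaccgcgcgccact
The site lay 9 bases before the start in MCM7, 31 in GINS2, 59 in PCNA and 35 in CDT1. E2F1, which encodes an E2F factor itself, held 2 sites, 33 and 20 bases before its start. The capitals of MCM6 are a pair of overlapping matches on opposite strands.

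In Non-Targeting cells the 46 genes summed to 1699 UMIs per 1000000 (CPM), 0.170% of all UMIs (42740 UMIs), with a median gene at 25.4 CPM. In this 3′ assay a transcript gives a UMI whatever its length, so CPM were compared between genes without division by length. The highest was RPA3, the small subunit of the single-strand DNA binding complex RPA, at 178 CPM (95% Poisson interval 172 to 183). PCNA, the sliding clamp, followed at 152 CPM, POLD2, a subunit of polymerase delta, at 144 CPM, and MCM7 at 106 CPM. The intervals of PCNA (148 to 157) and POLD2 (140 to 149) overlapped, and the others did not. Across the 15 control gRNAs that had 10 cells or more, RPA3 ran from 155 to 231 CPM and PCNA from 107 to 216 CPM, so the order of RPA3, PCNA and POLD2 is within the spread between groups of control cells. The lowest were CCNE2, which encodes cyclin E2, at 2.54 CPM and E2F8 at 3.62 CPM, with GINS3 at 6.20 CPM and ORC1 at 6.12 CPM next and not distinct from each other.

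Subunits of the same complex were present at unequal mRNA levels. Within the MCM2-7 ring, whose 6 subunits assemble in equal number, MCM7 stood at 106 CPM, MCM3 at 58.4, MCM4 at 54.6, MCM5 at 51.9, MCM6 at 29.1 and MCM2 at 13.5 CPM. Within RPA the spread was from 24.3 CPM for RPA2 to 178 CPM for RPA3. In GINS, GINS2 was at 67.1 CPM and GINS4, GINS1 and GINS3 at 19.0, 15.7 and 6.20 CPM. In polymerase delta POLD2 was at 144 CPM, the accessory subunit POLD3 at 27.5 CPM and the catalytic subunit POLD1 at 9.86 CPM. By role, the sums were 314 CPM for the MCM2-7 ring, 314 for the clamp and loader, 260 for polymerases and primase, 239 for RPA, 158 for origin licensing, 147 for CDC45, GINS and MCM10, 111 for the factors at the fork, 103 for the lagging strand enzymes and 52.3 CPM for cyclin E and the E2F factors.

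Across the 22 target pools with at least 40 cells, the replication genes were lowest in cells with gRNAs against RPL18, DHODH, MVD and SUV39H1, and highest in those against KAT2B and HDAC1. The measure is the median over the 46 genes of log2((CPM + 1)/(CPM + 1)) against Non-Targeting cells, so low genes are pulled toward 0. It was -0.57 for RPL18, -0.43 for DHODH, -0.34 for MVD, -0.27 for SUV39H1 and -0.19 for TRIM28, then ran from -0.12 (TUBB1) to 0.17 (HDAC1) and 0.22 (KAT2B). All pools share the same Non-Targeting reference. The 15 Non-Targeting gRNAs with 13 to 134 cells, each set against the other Non-Targeting cells, gave medians from -0.34 to 0.40. RPL18 and DHODH lay below that range, MVD lay at its lower end (-0.344 against -0.340), and SUV39H1, HDAC1 and KAT2B lay inside it. The 5 largest Non-Targeting gRNAs, with 51 to 134 cells, gave a narrower range, from -0.19 to 0.16 (SD 0.15), which was added as a comparison after the values had been seen. RPL18, DHODH, MVD and SUV39H1 lay below this narrower range and HDAC1 and KAT2B above it. The lowest and highest of only 5 groups bound it, so among 22 pools some no different from these groups can readily lie outside. A place outside this range therefore does not by itself set a pool apart from control cells. The RPL18 and DHODH pools, with 46 and 44 cells, are smaller than any of these 5 groups. HDAC1 was inside the narrower range, computed in the same way, with 10 CPM added (0.12 against a highest of 0.13), as a mean over cells (0.17 against 0.18) and by the summed members (0.12 against 0.16). The 2269 cells with no called gRNA had a median of 0.02 and a summed level of 101% of Non-Targeting cells (interval 99.8 to 102). In a pool, fewer cells in S phase and less replication mRNA per cell cannot be told apart.

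**Figure D1:**
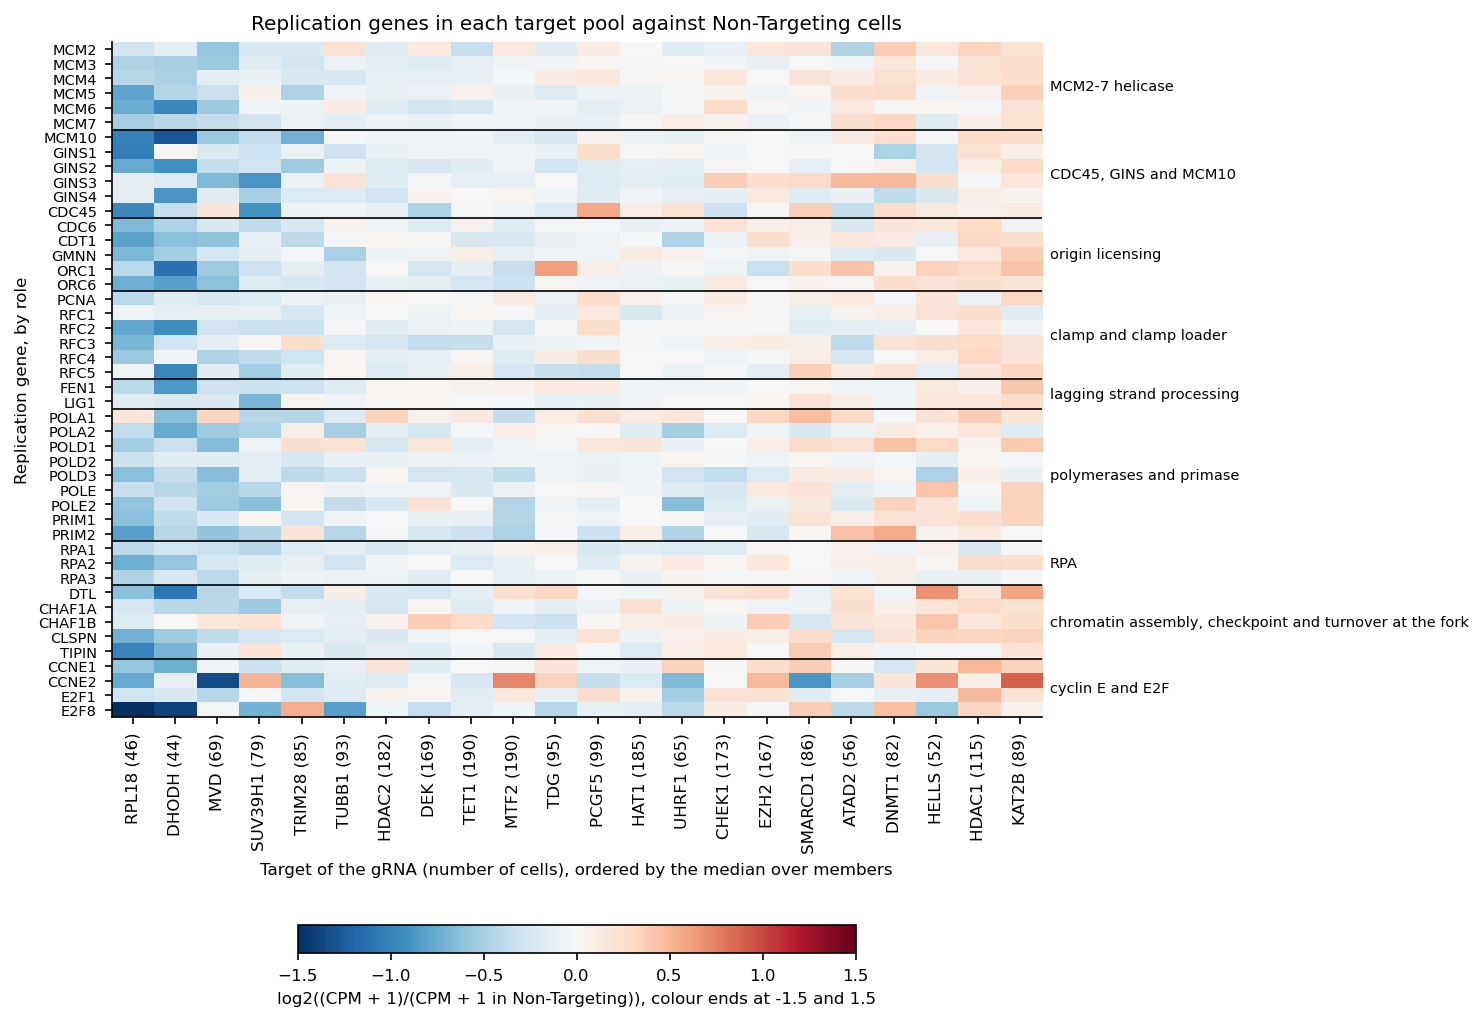
Replication genes (rows, grouped by role) in the 22 target pools with at least 40 cells (columns, number of cells in brackets, ordered by their median), as log2 ratio of CPM + 1 to Non-Targeting cells. The 4 columns at the left, RPL18, DHODH, MVD and SUV39H1, have 45, 44, 43 and 40 of 46 genes below 0.

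RPL18 encodes a protein of the large ribosomal subunit. In its 46 cells, 45 of the 46 replication genes were below 0, POLA1 being the exception at 0.17, against 58.4% of all 11553 genes tested. Their summed level was 1191 CPM, 70.1% of that in Non-Targeting cells (interval 67.1 to 73.2). A total of 25 members were past the fold of 0.5 on the log2 scale in the lower direction and 0 in the higher, where 11.4% of all genes tested were lower and 5.36% higher. With a fold of 0.3, 36 members were lower, against 24.2% of all genes. For 16 members the log2 ratio was below that of every single Non-Targeting gRNA, which held for 5.70% of all genes tested. By role the median was furthest from 0 for CDC45, GINS and MCM10 (-0.86) and origin licensing (-0.68), and nearest for the lagging strand enzymes FEN1 and LIG1 (-0.30).

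E2F8, an atypical E2F that represses E2F targets late in the cycle, had 0 UMIs in the RPL18 pool. It was at 3.62 CPM in Non-Targeting cells. For 0 of 1823644 UMIs in the pool, the interval ran from 0 to 57.1% of the Non-Targeting level. GINS1 was at 15.7 CPM in Non-Targeting cells and 7.13 CPM in the pool (5.47 CPM with RPL18_gRNA2, 7.81 CPM with RPL18_gRNA3), a log2 ratio of -1.04. MCM10, which helps to activate the helicase, was at 25.4 against 12.1 CPM (12.8 and 11.3 CPM with the same 2 gRNAs), a ratio of -1.01. RPL18_gRNA2 and RPL18_gRNA3 had 548865 and 1152655 UMIs in all. Their levels of GINS1 and MCM10 therefore rest on few UMIs, and likeness between the gRNAs cannot be read from them.

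TIPIN, a partner of TIMELESS that protects the fork, was at 24.0 CPM in Non-Targeting cells and 11.5 CPM in the RPL18 pool, 48.0% of it. CDC45 was at 13.8 against 6.58 CPM (-0.97) and PRIM2, the large primase subunit, at 9.42 against 4.94 CPM (-0.81). Each of these 3 values was below that of all 15 Non-Targeting gRNAs, with 21, 12 and 9 UMIs behind them. The 4 most abundant members were lower by less. PCNA stood at 75.2% (interval 65.1 to 86.4), RPA3 at 72.2% (63.1 to 82.4), MCM7 at 70.6% (59.0 to 83.8) and POLD2 at 79.8% (69.1 to 91.8). Members of rank 5 to 10 in level ran from -0.41 (FEN1) to -0.79 (MCM5), with GINS2, at 67.1 CPM in Non-Targeting cells, at -0.75. The furthest members were named for their distance and rest on few UMIs, so a relation with level cannot be read from them. RFC1, the large clamp loader subunit, was at 96.5% (75.8 to 121).

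Other cell cycle genes were lower in the same cells. Of 40 G2/M genes 37 were below 0 (median -0.52), and of 45 further replication and S phase genes 38 were (median -0.39). Over the 15 Non-Targeting gRNAs these medians ran from -0.71 to 0.44 and from -0.39 to 0.28. The G2/M median of RPL18 lay inside its range, and the other median just below its range (-0.395 against -0.385). CDKN1A, which encodes the cyclin-dependent kinase inhibitor p21, was 0.74 higher on the log2 scale, outside the range of -0.65 to 0.31 of the larger Non-Targeting gRNAs, while the median of 25 p53 target genes was 0.03. The CDKN1A value was 1.03 with RPL18_gRNA3 and 0.14, inside that range, with RPL18_gRNA2. RPL18 mRNA itself was at 90.6% (88.5 to 92.9) of its Non-Targeting level. Their part in the replication gene values was not tested.

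DHODH encodes dihydroorotate dehydrogenase, a mitochondrial enzyme of pyrimidine synthesis. In its 44 cells, 44 of the 46 genes were below 0, with CHAF1B (0.00) and GINS1 (0.02) as exceptions, against 49.7% of all genes. Their sum was 73.9% of Non-Targeting cells (70.3 to 77.6). A total of 19 members were past the fold and lower, against 10.9% of all genes tested, and 0 were higher, against 8.27%. With a fold of 0.3, 31 were lower, against 19.9%. The log2 ratio was below every Non-Targeting gRNA for 15 members, against 4.10% of all genes.

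E2F8 had 1 UMI in the DHODH pool, 0.760 CPM or 21.0% of its Non-Targeting level, with an interval of 0.526 to 120 that includes no difference. MCM10 was at 25.4 CPM in Non-Targeting cells and 9.88 CPM in the pool (7.84 CPM with DHODH_gRNA2, 16.6 CPM with DHODH_gRNA3), a log2 ratio of -1.28. ORC1, the origin recognition subunit that cycles, was at 6.12 against 2.28 CPM on 3 UMIs (-1.12). DTL, which directs CDT1 to degradation, was at 14.0 against 6.08 CPM (-1.08), RFC5 at 21.9 against 10.6 CPM (-0.97) and MCM6 at 29.1 against 14.4 CPM (-0.96). Among abundant members FEN1, the flap endonuclease, stood at 54.3% (39.7 to 72.6), while PCNA stood at 88.3% (75.5 to 103).

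All 40 G2/M genes were below 0 in the DHODH pool (median -0.83), as were 39 of the 45 other replication genes (median -0.36). The first median lay below the range of the 15 Non-Targeting gRNAs and the second inside it. CDKN1A was 0.44 higher on the log2 scale and the p53 list had a median of 0.17, but its gRNAs went opposite ways. With DHODH_gRNA3 CDKN1A was at 0.97 and the p53 list at 0.53, and with DHODH_gRNA2 they were at -0.19 and -0.15. The median cell of this pool had 28110 UMIs, against 33582 in Non-Targeting cells, and the part of depth and of these other genes in the replication gene values was not tested. DHODH mRNA was at 54.5% of its Non-Targeting level on 11 UMIs (27.0 to 98.6). The median over replication genes was -0.67 without the 14 cells of DHODH_gRNA2 and between -0.47 and -0.37 without any other of its gRNAs.

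MVD encodes mevalonate diphosphate decarboxylase of the sterol pathway. In its 69 cells 43 of 46 genes were below 0, against 53.9% of all genes, and their sum was 79.8% of Non-Targeting cells (77.1 to 82.6). A total of 15 were past the fold and lower (6.67% of all genes tested), 0 were higher (3.01%), and 8 were below every Non-Targeting gRNA (1.66%). With a fold of 0.3, 26 were lower (15.5%) and 1 was higher (9.29%). The 6 furthest members included neither MCM10 nor E2F8. They were CCNE2 (1 UMI, 15.5% of Non-Targeting, interval 0.386 to 89.4), GINS3 (-0.66), POLD1 (-0.65), POLD3 (-0.64), ORC6 (-0.61) and CDT1 (-0.60). POLD3 was at 27.5 CPM in Non-Targeting cells and at 17.3 CPM in the pool, with 23.1, 17.4 and 15.5 CPM under MVD_gRNA1, MVD_gRNA2 and MVD_gRNA4. CDT1 was at 38.1 against 24.8 CPM, with 17.0, 25.1 and 30.1 CPM under the same gRNAs. CHAF1B (0.16), CDC45 (0.18) and POLA1 (0.32) were above 0.

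The G2/M genes stood closer to Non-Targeting cells in the MVD pool than the replication genes did, with 30 of 40 below 0 and a median of -0.16, inside the range of -0.21 to 0.17 of the larger Non-Targeting gRNAs. The other replication genes had a median of -0.27 (39 of 45 below 0), inside the range of all 15 Non-Targeting gRNAs. CDKN1A was 0.18 higher on the log2 scale. MVD mRNA was at 117% of its Non-Targeting level (87.3 to 155), so a lower level of the targeted mRNA was not seen.

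SUV39H1 encodes a histone H3 lysine 9 methyltransferase. In its 79 cells 40 of 46 genes were below 0, against 56.8% of all genes, and the sum was 85.6% (82.9 to 88.5). Past the fold were 7 members lower (7.57% of all genes tested) and 1 higher, CCNE2 on 11 UMIs (2.86%), and 3 were below every Non-Targeting gRNA (2.44%). With a fold of 0.3, 21 were lower (17.5%). The 6 furthest were CDC45 (13.8 against 6.96 CPM, -0.90), GINS3 (-0.87), E2F8 (-0.71), LIG1 (-0.68), POLE2 (-0.63) and CHAF1A (-0.54). LIG1, the ligase that seals Okazaki fragments, was at 37.6 CPM in Non-Targeting cells, 23.1 CPM in the pool, and 26.6, 17.1 and 25.4 CPM with SUV39H1_gRNA1, SUV39H1_gRNA3 and SUV39H1_gRNA4. All 3 were below the Non-Targeting level. CDC45 was lower with SUV39H1_gRNA1 (4.84 CPM) and SUV39H1_gRNA3 (9.34 CPM) and not with SUV39H1_gRNA4 (15.9 CPM).

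All 40 G2/M genes were below 0 in the SUV39H1 pool (median -0.71), which is further from 0 than the replication genes. This median lay at the lower end of the range of the 15 Non-Targeting gRNAs (-0.715 against -0.708). CDKN1A was 0.55 lower on the log2 scale, inside the range of -0.65 to 0.31 of the larger Non-Targeting gRNAs. The part of the G2/M genes and CDKN1A in the replication gene values was not tested. SUV39H1 mRNA was at 50.3% of Non-Targeting on 10 UMIs (23.7 to 94.7). The replication gene median depended on the gRNA: it was -0.55 without SUV39H1_gRNA1 and -0.14 without SUV39H1_gRNA3, the latter inside the range of the larger Non-Targeting gRNAs.

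In the opposite direction, 39 of 46 genes were above 0 both in the 89 cells of the KAT2B pool and in the 115 cells of the HDAC1 pool, against 52.1% and 52.5% of all genes tested. The Non-Targeting gRNA CTRL00196, with 81 cells, also had 39 of 46 above 0. KAT2B encodes a lysine acetyltransferase and HDAC1 a histone deacetylase. The sums were 114% (111 to 117) and 108% (106 to 111) of Non-Targeting cells. Past the fold and higher were 2 members in the KAT2B pool, CCNE2 and DTL, against 2.41% of all genes tested, and 0 in the HDAC1 pool, against 1.75%. DTL was at 21.6 CPM in the KAT2B pool and 14.0 CPM in Non-Targeting cells (0.59), and CCNE1, which encodes cyclin E1, at 30.0 CPM in the HDAC1 pool and 20.9 CPM in Non-Targeting cells (0.50, just short of the fold). The medians of the G2/M genes were -0.06 and -0.08 in the 2 pools, and differed by gRNA: 0.15 with KAT2B_gRNA4 (replication genes 0.30) and -0.32 with KAT2B_gRNA2 (0.07), 0.09 with HDAC1_gRNA3 (0.44), 0.21 with HDAC1_gRNA4 (0.16), -0.31 with HDAC1_gRNA1 (0.22) and -0.61 with HDAC1_gRNA2 (-0.24). The median over replication genes was 0.38 without KAT2B_gRNA2, 0.12 without KAT2B_gRNA4 and 0.06 without HDAC1_gRNA3, the last 2 inside the range of the larger Non-Targeting gRNAs.

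In the TRIM28 pool of 85 cells 38 of 46 replication genes were below 0 (sum 88.0%), against 47.6% of all genes tested, and 3 of 40 G2/M genes were, with a median of 0.22. The replication gene median of -0.19 was at the lower end of the narrower Non-Targeting range. Cell by cell, at equal depth, 48.1% of TRIM28 cells had a G2/M count at or above the Non-Targeting median, against 51.7% of Non-Targeting cells. The TUBB1 pool of 93 cells, with its median of -0.12 inside both Non-Targeting ranges, also had 38 of 46 replication genes below 0. Their sum was 91.9% (89.4 to 94.5), and 59.5% of all genes tested were below 0. Of its 40 G2/M genes 39 were below 0 (median -0.39), and CDKN1A was at 0.39. Over all 22 pools, RFC1, PCNA, POLD2, RPA1, RPA3, MCM4, MCM7 and CHAF1B were past the fold in no pool, in either direction. The other 38 were past it in at least 1 pool, as were 54.4% of all genes tested. CCNE2 was past it in 5 pools lower and 5 higher and E2F8 in 5 lower and 1 higher, on the 2 lowest counts of the list. MCM10 and POLE2 were lower in 4 pools each.

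Single gRNAs show how far groups of cells differ when nothing is targeted. The SD of the median over the 15 Non-Targeting gRNAs was 0.20, and their summed levels ran from 83.3% to 137% of the other Non-Targeting cells. In single Non-Targeting gRNAs up to 15 members were past the fold and lower, and up to 19 higher. Among the 5 largest the most was 4 in either direction. CTRL00320, with 33 cells, had 40 of 46 genes below 0, as in the SUV39H1 pool, and 15 past the fold and lower, as in the MVD pool. Of 68 targeting gRNAs with at least 10 cells, 11 had a median below the range of the 15 Non-Targeting gRNAs and 1, HDAC1_gRNA3 at 0.44, above it. Of the 11, 6 had fewer cells than the smallest Non-Targeting gRNA, and 5 had 13 cells or more. By the summed level, which genes with few UMIs do not pull down, 15 were below and 0 above. Both gRNAs of RPL18 with enough cells were among the 11. RPL18_gRNA2 had a sum of 81.9% (76.2 to 88.0) in 15 cells and RPL18_gRNA3 64.8% (61.2 to 68.5) in 26 cells. For DHODH the sums were 84.9% with gRNA2 and 76.4% with gRNA3, 14 cells each. Only gRNA3 lay below the Non-Targeting ranges, with a median of -0.51, and gRNA2, at -0.19, lay inside them by median and by sum. DHODH_gRNA1 and DHODH_gRNA4, with 7 and 9 cells, had too few cells to be read singly.

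The gRNAs of the same target did not always give the same level. MVD_gRNA1 had a sum of 70.4% (65.5 to 75.6) in 18 cells, MVD_gRNA4 81.3% (77.5 to 85.2) in 34 cells and MVD_gRNA2 96.5% (90.1 to 103) in 16 cells. SUV39H1_gRNA3 had 70.2% (65.3 to 75.4) in 19 cells and SUV39H1_gRNA4 78.6% (71.3 to 86.6) in 11 cells, whereas SUV39H1_gRNA1, with the most cells (44), had 97.2% (93.5 to 101). HDAC1_gRNA2 had 78.8% (74.6 to 83.2) and HDAC1_gRNA3 129% (124 to 134), so gRNAs against the same gene lay on opposite sides of Non-Targeting cells.

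The lowest of all 68 was PCGF5_gRNA1, against a subunit of a polycomb complex, with a sum of 51.8% (46.4 to 57.7) and 43 of 46 genes below 0 in 12 cells. MCM7 was at 33.8 CPM there against 106 CPM in Non-Targeting cells and MCM6 at 2.60 against 29.1 CPM. These 12 cells had 385091 UMIs in all and 339 of the replication genes, so the MCM6 value is at the floor of the count. The other PCGF5 gRNAs had 126%, 93.9% and 101%, and the whole pool 101%. In the 8 of these 12 cells with at least 10000 UMIs, the summed replication UMIs per 10000 ran from 0 to 18 with a median of 9.5, nearer to the 13 of Non-Targeting cells than the pooled sum, and the summed G2/M UMIs from 0 to 142.

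**Figure D2:**
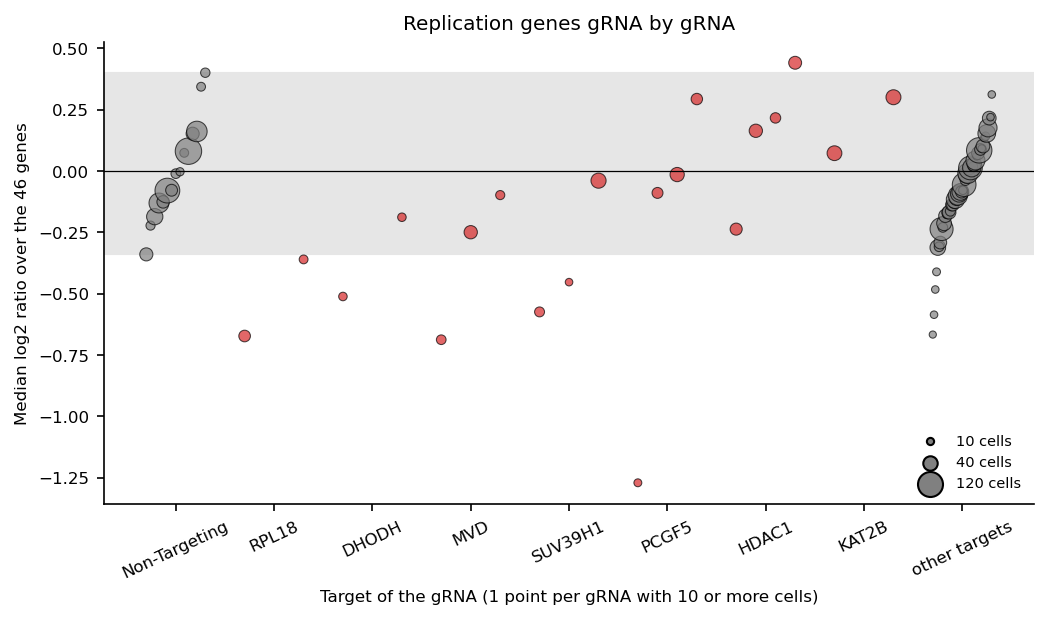
Median log2 ratio over the 46 replication genes for each gRNA with at least 10 cells, by target, with point area in proportion to the number of cells. The grey band is the range of the 15 Non-Targeting gRNAs, -0.34 to 0.40, and PCGF5_gRNA1 lies lowest at -1.27.

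Replication genes were then counted cell by cell in the 5317 cells with at least 10000 UMIs, each thinned to 10000 UMIs. The summed count of the 46 genes had a median of 13 in 650 of the 696 Non-Targeting cells, with quartiles at 6 and 24. It was 9 in 42 of the 46 RPL18 cells, 7 in 37 of the 44 DHODH cells, 10 in 65 of the 69 MVD cells and 9.5 in 72 of the 79 SUV39H1 cells. Above the Non-Targeting median were 48.9% of Non-Targeting cells (Clopper-Pearson interval 45.0 to 52.8), 33.3% of RPL18 cells (19.6 to 49.5), 24.3% of DHODH cells (11.8 to 41.2), 38.5% of MVD cells (26.7 to 51.4) and 38.9% of SUV39H1 cells (27.6 to 51.1). These intervals cover counting error only. Among the 15 Non-Targeting gRNAs, with 12 thinned cells or more each, the share ran from 36.7% to 62.5%, and among the 5 largest from 40.8% to 60.5%. The DHODH and RPL18 shares lay below both ranges, and the MVD and SUV39H1 shares below the second only. Cells with high counts were present in every pool, with upper deciles of 25 UMIs for RPL18 and 24.6 for DHODH against 33 for Non-Targeting cells.

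**Figure D3:**
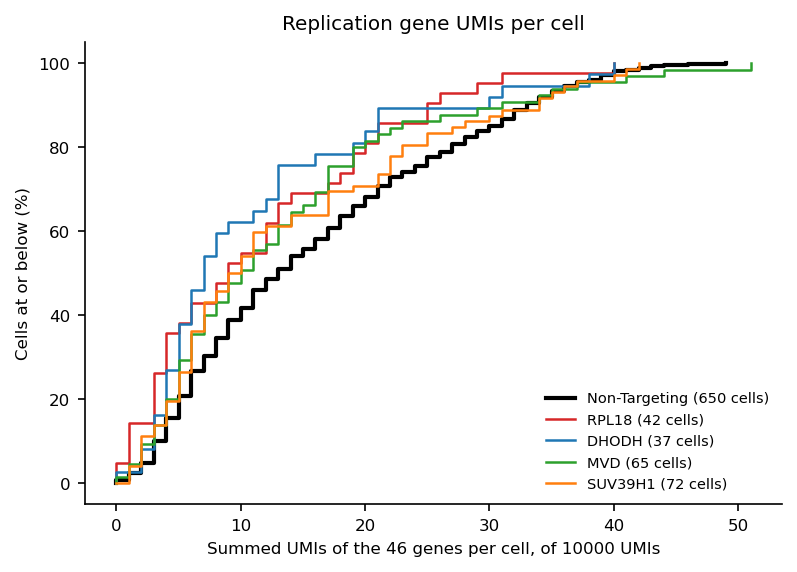
Share of cells (%) at or below a given summed count of the 46 replication genes, per cell thinned to 10000 UMIs, for Non-Targeting cells and 4 target pools. The curves of the target pools run above the Non-Targeting curve over most of the low counts, with medians of 7 to 10 against 13.

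Cells were also split at the Non-Targeting median of the summed G2/M count, 10 UMIs. The share at or above the split was 51.7% of Non-Targeting cells, 35.7% of RPL18 cells, 35.1% of DHODH cells, 43.1% of MVD cells and 40.3% of SUV39H1 cells. Among the 15 Non-Targeting gRNAs it ran from 33.3% to 68.8%, and among the 5 largest from 43.9% to 53.9%. Below the split the mean replication count was 9.07 in Non-Targeting cells, 7.59 with RPL18, 6.13 with DHODH, 7.38 with MVD and 6.84 with SUV39H1. Above it the means were 22.4, 18.5, 20.3, 21.3 and 24.3. The means above the split rest on 15 RPL18, 13 DHODH, 28 MVD and 29 SUV39H1 cells. On the log2 scale RPL18 cells were at -0.26 below and -0.27 above the split, DHODH cells at -0.57 and -0.14, MVD cells at -0.30 and -0.07, and SUV39H1 cells at -0.41 and 0.12. Values below the split of like size were also seen in the TRIM28 (-0.41), TET1 (-0.28), PCGF5 (-0.28) and ATAD2 (-0.25) pools.

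The 46 genes varied together from cell to cell. Pearson r between each gene and the summed count of the other 45, on log2(count + 1) over the 5317 thinned cells, was 0.1 or more for all 46, where 9.33% of 11535 other genes reached 0.1 with the sum of all 46. The median was 0.29 for members and 0.0045 for the other genes. For members it was 0.42 in cells thinned to 20000 UMIs and 0.53 in cells not thinned. All 1035 pairs of members had r above 0, with a median of 0.11, 0.10 for pairs inside a role and 0.11 for pairs across roles. Roles differed: the median inside the MCM2-7 ring was 0.23, against 0.14 for pairs of its members with other members, and inside origin licensing 0.18 against 0.13, whereas the 36 pairs of polymerase and primase genes had 0.06 against 0.09. It was higher inside than outside for 5 of the 9 roles. The thinned cells share a library and a depth, and r is held down where counts are few, so the order of genes follows partly their level.

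The 10 genes closest to the rest were MCM7 (r 0.55), GINS2 (0.53), PCNA (0.52), FEN1 (0.51), CLSPN, a checkpoint adaptor at the fork (0.46), MCM4 (0.46), MCM5 (0.43), MCM3 (0.43), MCM10 (0.41) and CDC6 (0.40). The closest single pair was MCM7 with PCNA (0.38), then MCM7 with GINS2 (0.36) and PCNA with FEN1 (0.36). The 10 furthest were GINS3 (0.13), POLA1 (0.14), RFC1 (0.16), CCNE2 (0.16), PRIM2 (0.16), E2F8 (0.16), CCNE1 (0.17), POLD1 (0.18), RPA1 (0.19) and CHAF1B (0.20). RFC1 and RPA1 are not low genes: at 0.418 and 0.331 UMIs per thinned cell they matched MCM5 (0.491) and CLSPN (0.332), whose r was 0.43 and 0.46. POLD2, at 1.31 UMIs per cell, reached 0.28 where MCM7, at 0.995, reached 0.55. The variance over the mean of the counts was 1.06 for RFC1 and 1.08 for RPA1, close to the median of all genes (1.04), and 1.89 for PCNA and 1.64 for GINS2.

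**Figure D4:**
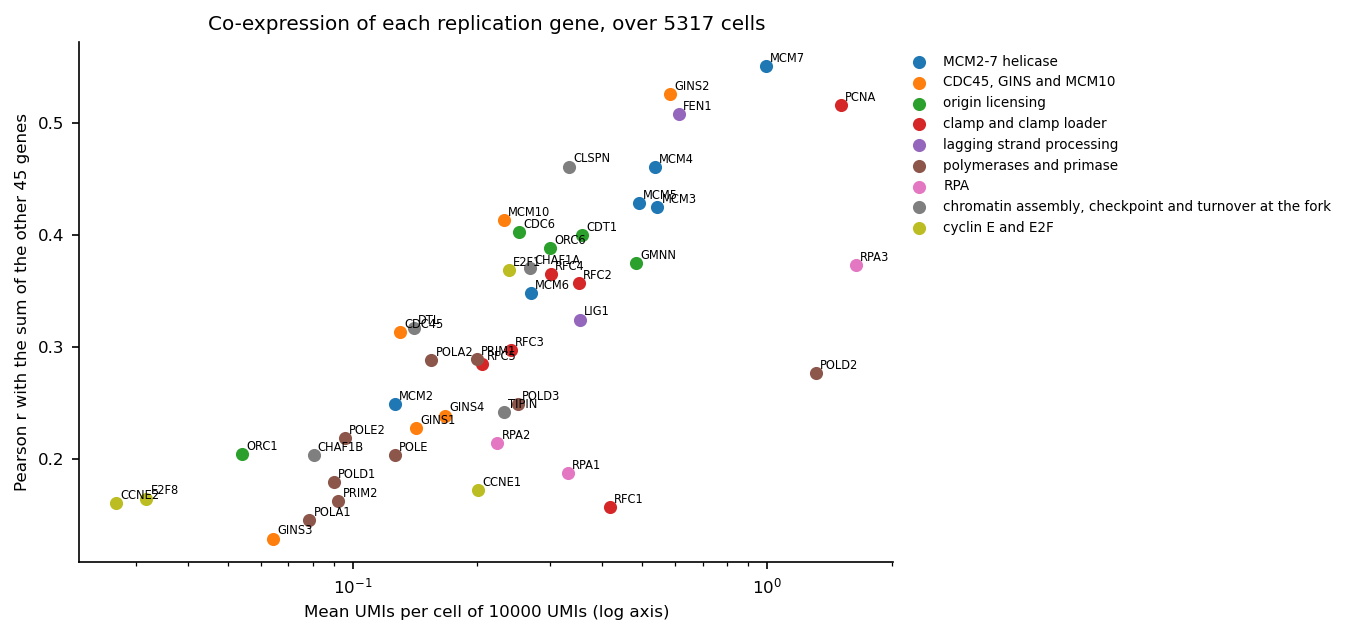
Pearson r of each replication gene with the sum of the other 45 over 5317 cells, against its mean UMIs per cell of 10000 UMIs (log axis), coloured by role. RFC1, RPA1, CCNE1 and POLD2 lie below other genes of their level, and GINS2, MCM10 and CLSPN above.

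Outside the list, the genes of at least 0.2 UMIs per cell closest to the summed members were TUBA1B (0.62) and TUBB (0.51), which encode tubulins, TK1 (0.57), thymidine kinase, H2AFZ (0.57) and HIST1H4C (0.51), which encode histones, PCLAF (0.57), a PCNA-binding factor, CKS1B (0.52), a cyclin-dependent kinase subunit, ATAD2 (0.52), CENPX (0.51) and BRCA1 (0.49). ATAD2, a chromatin ATPase, is itself a target of the screen, and in its own pool the replication gene median was 0.05. Of the fixed lists, all 40 G2/M genes reached 0.1 (median 0.27), as did 37 of 45 other replication genes (median 0.22), and 1 of 25 p53 targets (median -0.05). The summed members had r 0.61 with the summed G2/M list and 0.80 with the summed other replication genes. Members with and without an E2F match in their promoter had median r of 0.32 and 0.28.

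The cells were placed in 5 bins by their summed G2/M count, which holds no member, and the members reached their highest level at different points along it. The bins are ranges of a score and not cell types. The summed members were at 604 CPM in the lowest bin (0 to 3 G2/M UMIs, 1396 cells), 976 CPM in the next, 2112 CPM in bin 3, 2624 CPM in bin 4 (17 to 45 UMIs) and 1909 CPM in the highest (46 to 159 UMIs, 1043 cells). Of the 46 genes 38 were highest in bin 4, 4 in bin 3 and 4 in bin 5, and 45 were lowest in bin 1.

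CCNE1 departed furthest from the rest. It was at 12.8, 21.1, 30.0, 29.9 and 10.2 CPM from bin 1 to bin 5, and was the only member lowest in the bin of highest G2/M count. DTL (2.58, 7.26, 28.7, 26.8 and 9.01 CPM) and MCM6 (9.03, 19.3, 48.6, 46.9 and 17.4 CPM) were also highest in bin 3, as was GINS3 (9.05 against 8.89 CPM in bin 4). In all 4 genes the margin of bin 3 over bin 4 was small. E2F1, CDC6, MCM10 and CCNE2 peaked in bin 4 but were low again in bin 5, E2F1 at 46.5 and 14.4 CPM and MCM10 at 48.2 and 18.6 CPM. RPA3, RPA2, GINS1 and RFC3 were highest in bin 5, RPA3 at 229 CPM and RFC3 at 39.4 CPM. POLD2 and RFC1 varied least across bins, from 92.0 to 168 CPM and from 31.8 to 54.9 CPM, and CLSPN and CDC45 were among those that differed most, from 4.08 to 66.6 CPM and from 1.29 to 28.9 CPM. When cells were binned instead by the summed other replication genes, all 46 members were lowest in bin 1 and highest in bin 5, with sums from 529 to 2921 CPM.

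**Figure D5:**
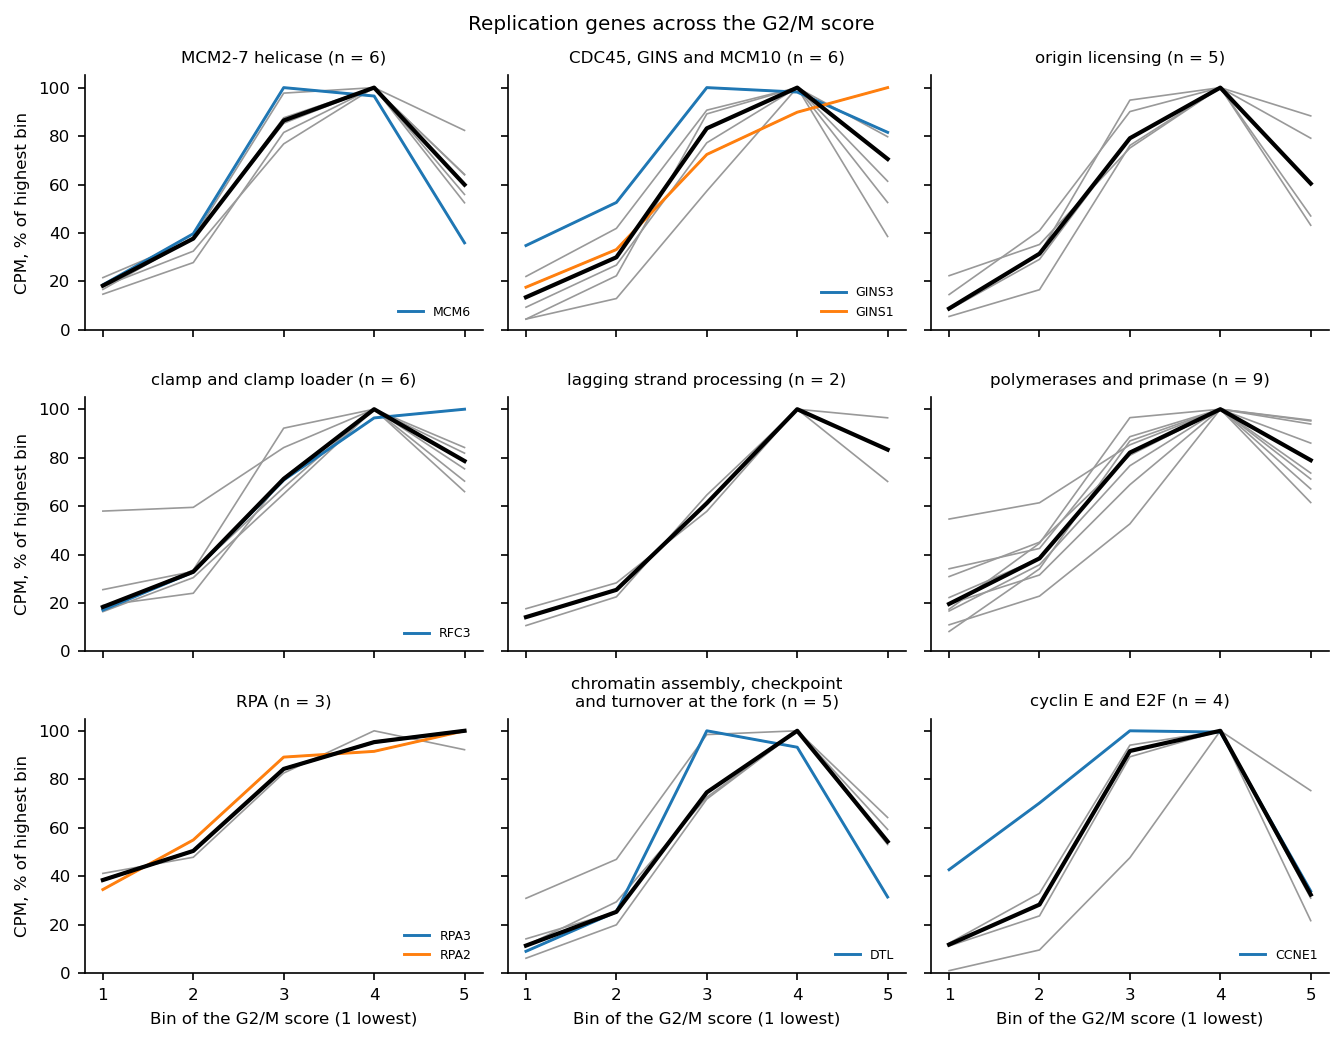
Pooled CPM of each replication gene in 5 bins of the summed G2/M count, as % of its highest bin, in a panel for each role, with single genes in grey, the median in black and genes highest outside bin 4 in colour. Most genes are highest in bin 4. CCNE1, DTL, MCM6 and GINS3 are highest in bin 3 by small margins over bin 4, and RPA3, RPA2, GINS1 and RFC3 are highest in bin 5.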

How the data were processed

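The authors aligned and counted the 10x 3′ v3.1 reads of the transcriptome and gRNA enrichment libraries with Cell Ranger 3.1.0 on GRCh38, and deposited 1 table of raw UMI counts (33538 genes and 120 gRNAs in 5744 cells). R 4.2.0 and Seurat 4.1.0 are also named in the submitters' processing notes. No normalized values were used.

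Counts were summed over cells and given as UMIs per 1000000 (CPM). Log2 ratios used 1 CPM added and at least 50 UMIs in either pool, and a member was called at 0.5. Pools needed 40 cells and gRNAs 10. Intervals are 95% and exact (Poisson, conditional ratio or Clopper-Pearson), and take counts as independent, which cells are not. In the 4 pools furthest from 0 the 6 furthest members were named, with the 10 members highest and lowest in r and the 10 closest other genes. Cells with several gRNAs were left out of pools and no doublet caller was run. Thinning used 10000 UMIs without replacement. The calculation was tested on simulated data. With 1 library there were no replicates and no p-values. The members and gene lists were chosen with earlier results of these data known. Alternatives changed the gRNA call, cells, pseudocount, minimum, scaling, fold and thinning. Python 3.11.15, NumPy 2.4.6 and SciPy 1.17.1 were used.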

Additional observations from a re-analysis of the deposited data

How the results depend on the processing

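Of 220 recomputed pool medians (22 pools under other gRNA calls, cells, pseudocount, UMI minimum, scaling, a mean over cells and, chosen after seeing the data, the ratio of the summed members), 219 moved by less than the SD of 0.15 between the larger Non-Targeting gRNAs. The exception was RPL18 with 10 CPM added, at -0.38. Removing the UMI minimum could not move any median, because all 46 genes already passed it, so that setting repeats the main values. Over these settings the median ran from -0.61 to -0.38 for RPL18, -0.54 to -0.32 for DHODH, -0.36 to -0.22 for MVD and -0.29 to -0.19 for SUV39H1. Leaving out each gRNA in turn gave -0.22 to 0.042 for CHEK1, -0.67 to -0.37 for DHODH, -0.12 to 0.16 for DNMT1, 0.06 to 0.29 for HDAC1, 0.12 to 0.38 for KAT2B, -0.22 to 0.065 for MTF2, -0.43 to -0.28 for MVD, -0.63 to -0.43 for RPL18, -0.55 to -0.14 for SUV39H1. The pools were also set against the 5 largest Non-Targeting gRNAs under the same setting. RPL18, DHODH, MVD, SUV39H1 and KAT2B kept their side of the range in all 10 settings, among them the repeat without a UMI minimum. HDAC1 lost it in 3, and TRIM28 fell below the range in 4. With a fold of 0.3 the members lower were 36 for RPL18, 31 for DHODH, 26 for MVD and 21 for SUV39H1, and 1 was higher for MVD. With at least 200 UMIs, 0 were higher for SUV39H1. The median r was 0.53 without thinning, where cells differ in depth, 0.42 with 20000 UMIs per cell, and 0.31 in Non-Targeting cells. No paired analysis was possible because all cells come from 1 culture with no replicate numbers. Groups of 11 to 46 cells limit what can be read from any gRNA or small pool.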
